A study of Mus musculus with 2 samples.

Results

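The Ly6 genes encode small cell-surface proteins built on a single three-finger fold, most of them held in the membrane by a GPI anchor. The 10 genes of this family described here in mouse intestine were Ly6a, Ly6c1, Ly6c2, Ly6d, Ly6e, Ly6g, Ly6i, Ly6k, Ly6g6c and Ly6m. They were the rows whose symbol equals one of these names, 10 of the 40879 gene symbols counted, and all 10 had a read in both libraries. The members were chosen by symbol when the read counts of these libraries were already known, Ly6g among them, so that their levels and differences are a description with no test. Their combined level was 1141 CPM (reads scaled to a common library size) in WT and 642 CPM in ERAP1+/-.

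The intestine of ERAP1 WT mice was compared with that of mice heterozygous for ERAP1, an aminopeptidase of the endoplasmic reticulum that trims peptides for MHC class I. Each genotype is represented by 1 library, made from RNA that the methods describe as pooled from 3 mice, so that no p-value is given, WT and ERAP1+/- stand below for these 2 libraries, and the variation between mice is unknown. All mice were untreated and on the C57BL/6 background, and the methods call them germ-free while housed in a specific pathogen-free facility. The methods give an age of 8 weeks at assignment to groups. Control mice were then kept on regular water for several weeks, and the age of the sequenced mice at collection is not stated. The ERAP1+/- animals came from 1 embryonic stem cell clone with the tm1a allele, crossed with a Cre strain that is not named, and loxP sites flank exons 6 and 7.

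The libraries held 8114826 (WT) and 8907515 (ERAP1+/-) reads on genes, and differed in more than the genotype label. Erap1 itself had 229 reads in WT and 2 in the library labelled ERAP1+/-, a ratio of 0.0073 (95% interval 0.000878 to 0.0267), which is lower than 1 intact copy would give. These reads come from the 3' end of the transcript, outside the deleted exons, and do not check the deletion itself. Genes of surface colonocytes were abundant in both libraries, the tissue of the label (12849 and 8802 CPM over 16 genes). Genes of suprabasal epidermis (4001 and 52.6 CPM over 25 genes) and of skeletal muscle (1284 and 24.8 CPM over 16 genes) were high in WT alone. Xist, chosen after its values were seen, had 1635 and 6451 reads, and the Y-linked gene Ddx3y had 319 and 29. The sex of the mice is not given in the labels, so that sex and genotype cannot be told apart. In bulk tissue, fewer cells of a type and less RNA per cell cannot be told apart either.

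Several Ly6 proteins serve as markers in immunology. Ly6g marks neutrophils of the mouse, the Ly-6C proteins encoded by Ly6c1 and Ly6c2 are used to sort monocytes and also occur on endothelium, and Ly6a is Sca-1, a marker of blood stem cells that also appears on endothelium and other cells. Ly6d occurs on early B lineage cells and on keratinocytes, and Ly6e is broadly expressed. Interferons induce several members of the family, Ly6a and Ly6e among them.

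Of the members, 9 form a cluster on chromosome 15 of the mouse genome build GRCm38 (GENCODE M21), over 397.1 kb. In genome order they are Ly6d (15:74762056-74763620, minus strand), Ly6k (15:74796874-74799986, minus), Ly6m (15:74876987-74897021, minus, named 2010109I03Rik in that annotation) and Ly6e (15:74955051-74959905, plus). They are followed by Ly6i (15:74979534-74983430, minus), Ly6a (15:74994877-74998031, minus), Ly6c1 (15:75044018-75048830, minus), Ly6c2 (15:75108158-75111970, minus) and Ly6g (15:75155240-75159126, plus). Ly6g6c lies apart on chromosome 17 (17:35065388-35070050, plus), in the MHC class III region.

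Of the cluster genes, 5 are near copies of each other, which matters for a method that reads only transcript ends. Over the coding sequence, Ly6c1 and Ly6c2 were 97.7% identical, Ly6a and Ly6i 86.4%, Ly6a and Ly6g 83.2% and Ly6c1 and Ly6g 79.8%. The other members shared 54.1% or less with any member. The last 75 coding bases, up to and including the stop codon, are shown for the 5 near copies, with the bases that differ from Ly6c1 in capitals.
Ly6c1: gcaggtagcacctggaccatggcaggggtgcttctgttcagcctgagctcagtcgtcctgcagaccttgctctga
Ly6c2: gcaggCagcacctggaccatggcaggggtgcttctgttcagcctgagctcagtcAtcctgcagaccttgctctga
Ly6a: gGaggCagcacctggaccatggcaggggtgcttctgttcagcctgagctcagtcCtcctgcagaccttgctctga
Ly6i: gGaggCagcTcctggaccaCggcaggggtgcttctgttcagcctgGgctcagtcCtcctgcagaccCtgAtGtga
Ly6g: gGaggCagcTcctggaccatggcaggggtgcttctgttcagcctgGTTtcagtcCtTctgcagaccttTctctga
In these 75 bases Ly6c2 differs from Ly6c1 at 2 positions, Ly6a at 3, and Ly6i and Ly6g at 9 each. They lie at 15:75045402-75045476 (Ly6c1), 15:75108543-75108617 (Ly6c2), 15:74995262-74995336 (Ly6a) and 15:74979914-74979988 (Ly6i) on the minus strand, and at 15:75158665-75158739 (Ly6g) on the plus strand, all on GRCm38.

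The 3' ends, the part of the transcript this method reads, were compared in stretches of 75 bases. Of the 326 stretches of 75 bases in the last 400 bases of the Ly6c1 transcript, 50 (15.3%) occur unchanged in Ly6c2. Within 2 edits of another gene were 93.9% of the Ly6c1 stretches, 95.1% of those of Ly6c2 and 9.20% of those of Ly6i. For the other 7 members the share was 0. The nearest match of Ly6g was 3 edits away, in Ly6c2, and that of Ly6a 4 edits away. Counts of Ly6c1 and Ly6c2 are therefore uncertain one by one, and are also given added together, while the read sequence sets Ly6a and Ly6g apart from the other genes of the cluster by this measure.

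The order of the members by level differed between the libraries. One fragment is read from the 3' end of a transcript, so that CPM here carries no length scaling. In the WT library Ly6g was first with 369 CPM, then Ly6a (330), Ly6e (170), Ly6g6c (91.0), Ly6d (83.5), Ly6c1 (54.7), Ly6m (38.1) and Ly6c2 (3.73). In the ERAP1+/- library the order of CPM values was Ly6e (225), Ly6a (193), Ly6g (147), Ly6c1 (45.6), Ly6d (12.3), Ly6c2 (9.57), Ly6m (5.91) and Ly6g6c (2.47). Ly6i and Ly6k were last in both, below 1 CPM. Neighbours whose 95% counting intervals overlapped were Ly6g6c and Ly6d in WT, Ly6d with Ly6c2 and, barely, Ly6c2 with Ly6m in ERAP1+/-, and Ly6i and Ly6k in both.

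**Figure D1:**
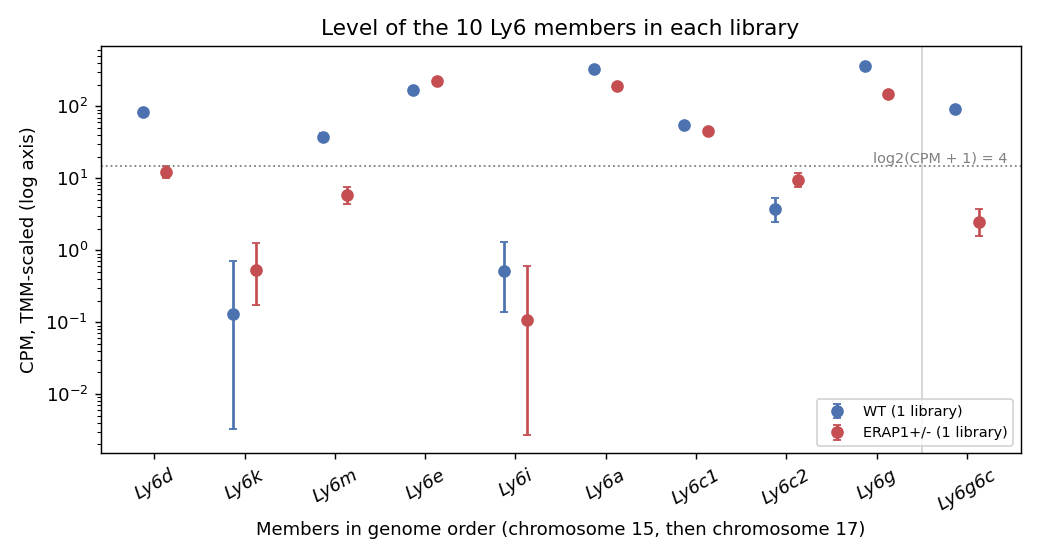
Level of each of the 10 members in CPM (log axis, TMM-scaled) in WT (blue) and the ERAP1+/- library (red), 1 library each, with exact 95% intervals for counting error. Ly6d, Ly6m, Ly6g and Ly6g6c lie more than 2-fold lower in ERAP1+/-, while Ly6e lies higher, as does Ly6c2 when it is counted apart from its near copy Ly6c1.

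Differences are given as ERAP1+/- minus WT on the log2(CPM + 1) scale, on which differences of genes with few reads come out too small, and fold values are ratios of the scaled reads. A gene was called where it passed 2-fold on that scale and log2(CPM + 1) was at least 4 in 1 or both libraries. Of the 10 members, 7 passed that level, and 3 of these (Ly6d, Ly6g6c and Ly6m) passed it through the WT library alone. Of the 7, 4 were called lower (Ly6d, Ly6g, Ly6g6c and Ly6m) and none higher. Over all 8013 genes past the level, 3.96% were called lower (317 genes) and 1.39% higher (111 genes), but the members were chosen with this contrast known and nothing is read from their share. With the total count in place of TMM scaling, the split over all genes was 248 lower and 166 higher, and the same 4 members were called lower. Over the 10 members the log2 difference was below 0 for 7 and above 0 for 3, with a median of -0.61. The median of all genes past the level was -0.03, but Ly6c2, Ly6i and Ly6k did not pass that level, so that the medians rest on unlike filters. Of the members past the level, Ly6g (-1.32) was the nearest to the 2-fold threshold among those called, and Ly6a (-0.77) among those not called.

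Ly6g, the neutrophil marker, had 2867 reads in WT and 1367 in ERAP1+/-. It was 2.51-fold lower in the latter (95% interval 2.35 to 2.68), a log2 difference of -1.32. It was the member with the most reads in WT, where it made up 32.3% of all member reads, against 22.9% in ERAP1+/-.

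Several genes listed for neutrophils were at or near 0 in WT, where Ly6g was high. How far the RNA of these genes follows the number of neutrophils in intestine was not tested. The granule protein genes Mpo, Elane, Prtn3, Ctsg, Ngp and Camp had 0 reads together in WT, which allows up to 3 reads or 0.386 CPM per gene, and 5 reads together in ERAP1+/-. S100a8, a subunit of calprotectin, had 49 and 165 reads, and S100a9, its partner, had 52 and 171. Both were more than 2-fold higher in ERAP1+/- (log2 differences 1.36 and 1.33), opposite in direction to Ly6g. Retnlg, a resistin-like gene of neutrophils, had 0 and 18 reads, and Csf3r, the receptor for G-CSF, had 1 and 5. Cxcr2, also on the list, had 3 and 1 reads, in the direction of Ly6g. The ratio intervals of Csf3r (0.467 to 197.5) and Cxcr2 (0.00530 to 3.47) include 1. Itgam, which encodes CD11b of neutrophils and other myeloid cells and had the most reads of the neutrophil list, had 142 and 99 reads (ratio 0.582, 95% interval 0.446 to 0.758). Its log2 difference of -0.73 was in the direction of Ly6g and within 2-fold. Mmp9, a granule gelatinase, had 36 and 29 reads (-0.45), with an interval of the ratio (0.398 to 1.13) that includes 1.

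Of the 24 genes of the neutrophil list, 12 had no read in WT and 6 had none in ERAP1+/-, with 5 at 0 in both. Of the list, 8 had at least 10 reads over both libraries, of which 3 differed by more than 2-fold upward (S100a8, S100a9 and Retnlg) and 2 downward (Ltf and Padi4), with a median log2 difference of -0.05. Among the 16142 genes with that many reads, 2.99% were more than 2-fold higher and 5.63% lower, with a median of 0.0020. Ltf, which encodes lactoferrin and is also a product of secretory epithelium, had 95 and 5 reads. The whole list summed to 53.3 CPM in WT and 59.1 CPM in ERAP1+/-, below the level of Ly6g alone in both (369 and 147 CPM). No cell of origin for the Ly6g reads was tested.

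Ly6g2, another gene of this family, had 206 and 157 reads, a log2 difference of -0.62. Within a library, the ratio of 2 genes is free of the scaling between libraries. There were 13.9 reads of Ly6g per read of Ly6g2 in WT and 8.71 in ERAP1+/-, a ratio of ratios of 0.626 (95% interval 0.501 to 0.783). The difference in Ly6g was thus larger than that in Ly6g2 beyond counting error.

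Ly6a, which encodes Sca-1, had 2565 reads in WT and 1795 in ERAP1+/-. It was 1.71-fold lower (95% interval 1.61 to 1.82), a log2 difference of -0.77 that stayed within 2-fold. Its share of the member reads was close in both libraries, 28.9% (95% interval 28.0 to 29.9) and 30.1% (28.9 to 31.2). The reads of Ly6a per read of Ly6g went from 0.895 in WT to 1.31 in ERAP1+/-, 1.47 times as many (95% interval 1.34 to 1.60). Both genes were lower in the same library, Ly6g by the larger factor.

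Ly6e, a broadly expressed member that takes part in the entry of several viruses into cells, went the other way. It had 1324 and 2096 reads and was 1.32-fold higher in ERAP1+/- (95% interval 1.23 to 1.42), a log2 difference of 0.40. Its share of the member reads was 14.9% in WT and 35.1% in ERAP1+/-. Per read of Ly6a there were 0.516 reads of Ly6e in WT and 1.17 in ERAP1+/-, a ratio of ratios of 2.26 (95% interval 2.06 to 2.48). Ly6a and Ly6e, both known as targets of interferon, thus differed in opposite directions. Of the 36 other interferon-stimulated genes listed, 33 had enough reads, and 1 of them was more than 2-fold higher (Cxcl9, 1.20) and 2 lower (Irf7, -1.10, and Oasl1, -1.05). Their median was -0.04, with 14 above 0 and 19 below it, and the whole list summed to 692 CPM in WT and 541 CPM in ERAP1+/-. The genes with the most reads, Irf1 (1933 and 1652) and Ifih1 (459 and 433), were within 2-fold. Their ratios had 95% intervals below 1 (0.668 to 0.763 and 0.6894 to 0.9005).

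The Ly-6C genes lie between Ly6a and Ly6g in the cluster. Ly6c1 had 425 and 424 reads, a log2 difference of -0.26 (ratio 0.833, 95% interval 0.727 to 0.956). Ly6c2 had 29 and 89 reads, 2.56 times as many after scaling (95% interval 1.67 to 4.04) and a log2 difference of 1.16, and did not reach the level of 4 in either library (2.24 and 3.40). There were 14.7 reads of Ly6c1 per read of Ly6c2 in WT and 4.76 in ERAP1+/-, a ratio of ratios of 0.325 (95% interval 0.202 to 0.512).

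As set out above, most 75-base stretches at the 3' ends of these genes lie within 2 edits of each other. Added together they had 454 and 513 reads, a log2 difference of -0.08 (ratio 0.944, 95% interval 0.830 to 1.07), so that their sum did not differ beyond counting error. Whether the shift from Ly6c1 to Ly6c2 reads came from the cells or from the assignment of reads was not tested.

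Lists of the cells known to carry these proteins stood beside them as follows. Of 14 monocyte genes, 11 had at least 10 reads and all 11 were within 2-fold, with a median of -0.02. Csf1r, the receptor for M-CSF, had 287 and 539 reads (log2 difference 0.64), Lyz2 146 and 296 (0.73) and Cx3cr1 156 and 320 (0.75), while Plac8, a gene not limited to monocytes, had 10636 and 6933 (-0.88). Of 15 endothelial genes, all had enough reads and all were within 2-fold, with a median of 0.12. Ptprb (308 and 439 reads), Kdr (272 and 412), Pecam1 (283 and 369) and Plvap (232 and 371) had the most reads of that list, with log2 differences of 0.25, 0.33, 0.12 and 0.41, and the interval of Pecam1 (0.930 to 1.28) includes 1. Of the 15, 9 were above 0 and 6 below it, the direction of Ly6a and Ly6c1, among them Emcn with 73 and 55 reads (-0.59, ratio 0.629, 95% interval 0.435 to 0.905). Of 12 fibroblast genes 1 was more than 2-fold lower (Pi16, -1.05), and the median was -0.25. Of 17 genes of T and NK cells, 7 had enough reads, each within 2-fold, with a median of 0.61, 5 above 0 and 2 below it. That list was low, with 108 and 155 reads over all its genes.

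Ly6g6c had the largest difference of the members. It had 707 reads in WT and 23 in ERAP1+/- and was 36.8-fold lower (95% interval 24.3 to 58.4), a log2 difference of -4.73. It made up 7.97% of the member reads in WT and 0.385% in ERAP1+/-. It is the only member outside the cluster on chromosome 15.

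Ly6d, a protein of keratinocytes and of early B lineage cells, had 649 and 114 reads. It was 6.81-fold lower (95% interval 5.58 to 8.39), a log2 difference of -2.67. Ly6m, whose role is less well known, had 296 and 55 reads and was 6.44-fold lower (95% interval 4.82 to 8.76), a log2 difference of -2.50. The intervals of these genes overlapped, and neither overlapped that of Ly6g6c or of Ly6g.

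Genes of stratified epithelium differed in the same direction as these members. Of 25 genes of suprabasal epidermis, 24 had at least 10 reads over both libraries and all 24 were more than 2-fold lower in ERAP1+/-, with a median of -5.21 and 12 of the 25 at 0 reads there. The 4 with the most reads were Flg (7952 and 4), Spink5 (4453 and 24), Krt10 (3922 and 72) and Krtdap (3681 and 15). Of 16 genes of basal stratified epithelium, 14 were more than 2-fold lower, with a median of -2.73, the exceptions being the integrin genes Itga6 (-0.21) and Itgb4 (-0.70). That list summed to 1511 and 470 CPM. Of 16 skeletal muscle genes 15 were more than 2-fold lower (median -4.98), such as Ttn with 2154 and 26 reads. The part of these tissues in the values of Ly6d, Ly6m and Ly6g6c was not tested.

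Genes of surface colonocytes, the mature epithelium of the colon, differed less. Of 16, 3 were more than 2-fold lower (Car4, -1.11, Krt20, -1.20, and Ceacam20, -1.07) and none higher, with a median of -0.34. Most of that list was lower in ERAP1+/-, with 13 below 0 and 3 above it. Of 10 plasma cell genes 4 were more than 2-fold higher and 1 lower (Prdm1, -1.31), with a median of 0.98. The 4 were Igha (2.74), Igkc (2.45), Mzb1 (2.34) and Jchain (2.04). The lists were written with earlier results of these data known, and their counts are not independent of them.

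**Figure D2:**
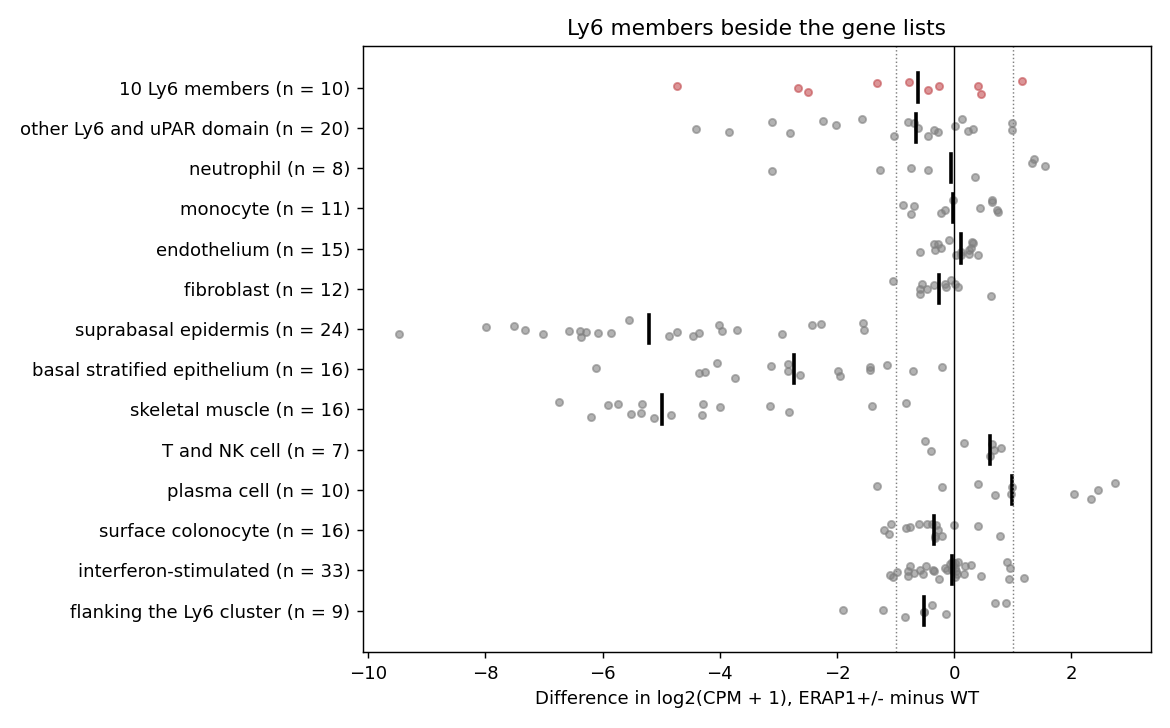
Difference in log2(CPM + 1), ERAP1+/- minus WT (x axis), for the 10 members (red) and for the genes of each list with at least 10 reads over both libraries (grey), with the median as a black bar and 2-fold as dotted lines. The members spread from -4.73 to 1.16. The median of the epidermal list was -5.21, and those of the monocyte, endothelial and neutrophil lists were -0.02, 0.12 and -0.05. Ly6e (0.40), Ly6k (0.45) and Ly6c2 (1.16) lay above these last 3 medians. Ly6k rests on 1 and 5 reads, below the filter of the lists. Ly6c2 came to -0.08 with the reads of Ly6c1 added.

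Ly6i and Ly6k were at the limit of detection. Ly6i, a near copy of Ly6a, had 4 reads in WT and 1 in ERAP1+/-. Ly6k, known from the testis, where it acts in sperm migration, had 1 and 5. The 95% intervals of their ratios (0.00424 to 2.11 for Ly6i, 0.467 to 197.5 for Ly6k) include 1, so that no difference was detectable at this depth.

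The make-up of the member reads differed between the libraries. In the WT library Ly6g, Ly6a and Ly6e led, and Ly6g6c, Ly6d and Ly6m followed with 7.97%, 7.32% and 3.34%. In the ERAP1+/- library the last 3 made up 0.385%, 1.91% and 0.921%, and Ly6e came first. The sum of the 10 members had a ratio of 0.562 (95% interval 0.544 to 0.581), and without Ly6g it was 0.641 (95% interval 0.616 to 0.666).

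**Figure D3:**
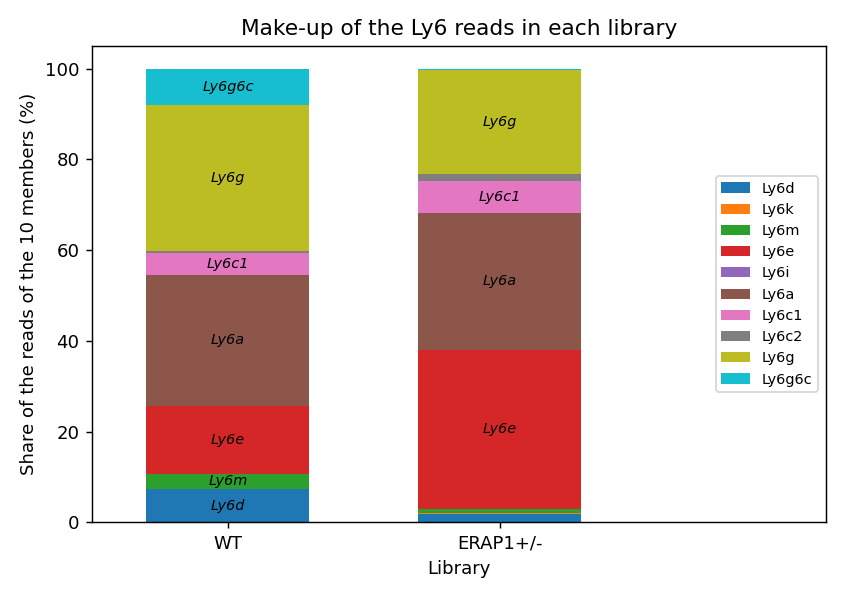
Share of the reads of the 10 members (y axis, percent) held by each member in WT (left bar) and the ERAP1+/- library (right bar). The share of Ly6e was 14.9% on the left and 35.1% on the right, that of Ly6g 32.3% and 22.9%, while that of Ly6a was 28.9% and 30.1%.

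Neighbours in the genome did not all differ in the same direction. From Ly6d to Ly6g, the log2 differences of the cluster members with at least 10 reads in 1 library ran -2.67 (Ly6d), -2.50 (Ly6m), 0.40 (Ly6e), -0.77 (Ly6a), -0.26 (Ly6c1), 1.16 (Ly6c2) and -1.32 (Ly6g). Of 12 genes flanking the cluster, 9 had enough reads, 2 were more than 2-fold lower (Arc, -1.21, and Mroh6, -1.89) and the median was -0.52. Gsdmd, the gasdermin that forms pores in pyroptosis and the flanking gene with the most reads, had 462 and 383 reads (-0.52).

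The promoters were compared where RefSeq gave them. Windows around the transcription start were given for Ly6c1, Ly6c2, Ly6g and Ly6g6c, 4 of the 10 members, as 7 windows on GRCm38.p6. They are shown, 1 for each gene, because Ly6c1, Ly6c2 and Ly6g are near copies whose reads differed in different directions, and because Ly6g6c differed most. Capitals mark the letters TATAAA.
Ly6c1: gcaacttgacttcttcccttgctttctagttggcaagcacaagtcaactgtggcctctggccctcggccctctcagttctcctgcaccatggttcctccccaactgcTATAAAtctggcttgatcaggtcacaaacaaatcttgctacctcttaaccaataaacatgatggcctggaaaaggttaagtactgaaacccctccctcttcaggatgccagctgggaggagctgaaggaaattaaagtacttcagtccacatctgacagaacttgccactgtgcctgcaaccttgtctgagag
Ly6c2: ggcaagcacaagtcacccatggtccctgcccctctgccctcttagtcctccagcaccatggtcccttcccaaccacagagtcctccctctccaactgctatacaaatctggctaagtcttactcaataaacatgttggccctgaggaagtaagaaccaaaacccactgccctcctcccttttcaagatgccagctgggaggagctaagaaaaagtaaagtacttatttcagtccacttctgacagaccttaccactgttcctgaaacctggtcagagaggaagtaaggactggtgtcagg
Ly6g: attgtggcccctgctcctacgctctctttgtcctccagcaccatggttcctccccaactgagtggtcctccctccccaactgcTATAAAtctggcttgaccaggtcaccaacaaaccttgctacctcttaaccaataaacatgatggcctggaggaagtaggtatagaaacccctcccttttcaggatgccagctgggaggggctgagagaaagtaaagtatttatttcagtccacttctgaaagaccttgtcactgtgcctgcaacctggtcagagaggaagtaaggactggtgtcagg
Ly6g6c: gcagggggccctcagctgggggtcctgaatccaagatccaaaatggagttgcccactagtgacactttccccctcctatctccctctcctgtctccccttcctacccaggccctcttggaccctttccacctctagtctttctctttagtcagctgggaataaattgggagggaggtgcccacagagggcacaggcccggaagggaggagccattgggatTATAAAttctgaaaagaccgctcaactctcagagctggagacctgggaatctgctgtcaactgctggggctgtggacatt
The windows are 15:75048788-75049087 for Ly6c1 and 15:75111922-75112221 for Ly6c2, both on the minus strand, 15:75155079-75155378 for Ly6g and 17:35067075-35067374 for Ly6g6c, both on the plus strand. Aligned over 280 columns, the Ly6c1 and Ly6g windows were 78.9% identical, and over 282 columns those of Ly6c1 and Ly6c2 73.8%. The values depend on the windows taken. Over all pairs of windows, Ly6c1 and Ly6g ran from 76.3% to 84.1%, and Ly6c1 and Ly6c2 from 72.6% to 81.4%.

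The letters TATAAA, searched on both strands, were in 4 of the 7 windows: 1 of Ly6c1, both of Ly6g and that of Ly6g6c. Of all 32851 promoter windows, 13.6% held them. The Ly6g windows overlap and hold the same TATAAA, and Ly6c1 and Ly6g are near copies. The 4 of 7 is therefore not a count of separate sites. Neither Ly6c2 window held TATAAA. Of the interferon-related motifs, TTCNNNGAA (the GAS element, 8.30% of all windows) and the interferon-stimulated response element (ISRE, 0.819%) were in 0 of the 7. A match is a description of letters and not of binding, and the windows of Ly6a and Ly6e were not analysed here.

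Beyond the 10 members, 35 other genes of the Ly6 and uPAR domain family were in the table, of which 20 had at least 10 reads over both libraries. On the log2(CPM + 1) scale, none of the 20 was more than 2-fold higher in ERAP1+/- and 8 were lower, with a median of -0.65. Bambi and Ly6g6e came nearest on the higher side (0.98 each), with ratios of scaled reads of 2.08 and 2.66. These counts stand beside the 2.99% and 5.63% of all genes with that many reads.

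Several of the 8 are known from stratified or glandular epithelium. Psca, first described in prostate, had 492 and 19 reads and was 31.0-fold lower (95% interval 19.6 to 51.9). Lypd3, a protein of squamous epithelium, had 177 and 6 reads and was 35.3-fold lower (95% interval 15.9 to 97.5). Slurp1, a secreted protein of keratinocytes, had 52 and 1 reads, and its relative Slurp2 had 29 and 0. Lypd5 had 59 and 0 reads, at least 23.5-fold lower against the floor of 3 reads, and Slurp2 was at least 11.6-fold lower. Lypd2 had 18 and 1 reads, and Plaur, the urokinase receptor, 32 and 14.

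Lypd8, a colonocyte protein that keeps flagellated bacteria away from the epithelium, had the most reads of the whole family. It had 70445 and 48750 reads and was 1.73-fold lower (95% interval 1.71 to 1.75), within 2-fold and close to Ly6a in its log2 difference (-0.79 and -0.77). Its near relative Lypd8l had 242 and 65 reads and was 4.46-fold lower (95% interval 3.38 to 5.96). There were 291 reads of Lypd8 per read of Lypd8l in WT and 750 in ERAP1+/-, a ratio of ratios of 2.58 (95% interval 1.95 to 3.44). Cd59a, which guards cells against complement, had 743 and 701 reads (-0.34).

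**Figure D4:**
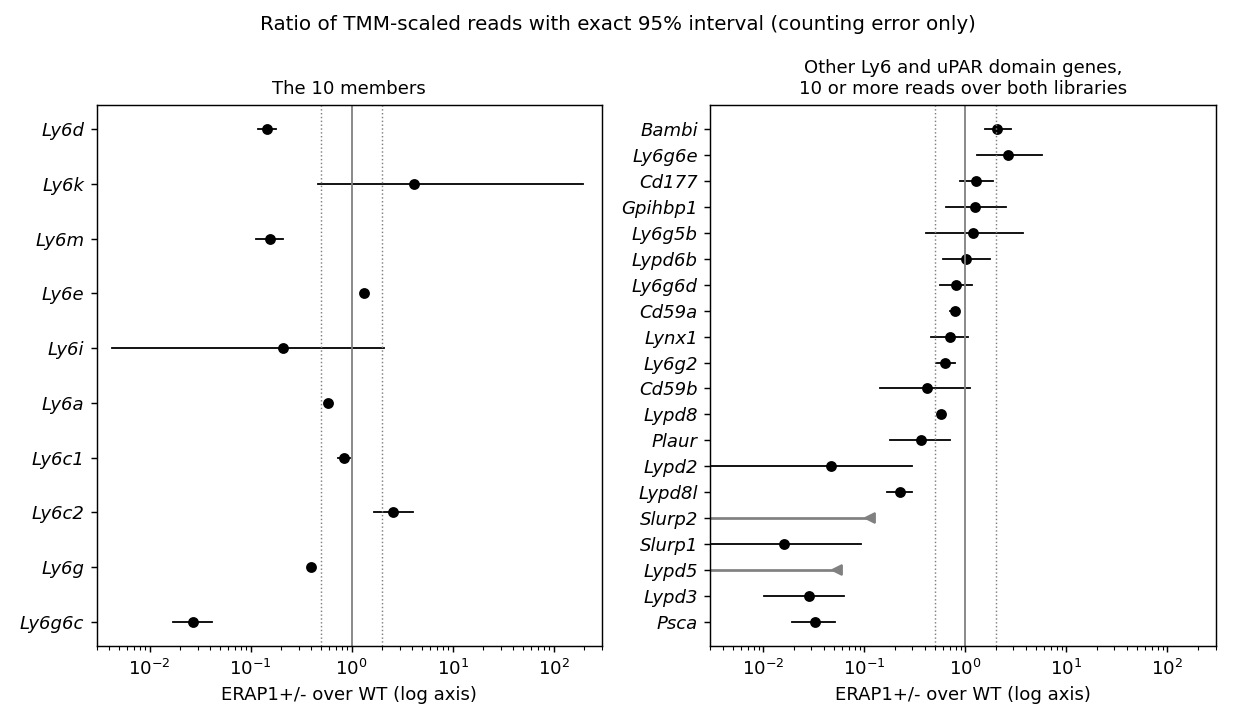
Ratio of TMM-scaled reads, ERAP1+/- over WT (log axis), for the 10 members in genome order (left) and the 20 other Ly6 and uPAR domain genes with at least 10 reads (right), with exact 95% intervals for counting error and dotted lines at 2-fold. Grey arrows mark the upper limit of genes at 0 reads in ERAP1+/-, and Ly6g6c (0.0272) lies near Psca and Lypd3.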

How the data were processed

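RNA of mouse intestine was sequenced as 1 library per genotype with a kit that reads the 3' ends of mRNA. The deposited values are counts, that is whole reads assigned to each of 40879 gene symbols by the authors, with no normalization applied. The submitters' processing notes name Bowtie2, RSEM and GRCm38, while the methods also name STAR with HTSeq, and which made the deposited counts is not stated. Versions are not given in the sources used here.

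CPM and log2(CPM + 1) were calculated here after TMM scaling (edgeR 4.0.16, R 4.3.3). The TMM factor of WT was 0.958 and that of ERAP1+/- 1.04. The 95% intervals are exact (scipy 1.17.1), conditional binomial for ratios, Clopper-Pearson for shares and Poisson for the CPM of 1 library. All cover counting error only. Genes with 0 reads were given an upper bound of 3 reads, or 0.386 CPM in WT and 0.322 CPM in ERAP1+/-. Mitochondrial and ribosomal RNA features took 18.0% and 16.7% of the reads. With 1 library per genotype no model can be fitted and no p-value is given.

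The 10 members and the 13 gene lists were chosen with earlier results of these data known. Named in the text were all members, other Ly6 and uPAR domain genes past 2-fold or with the most reads, and for most lists up to 4 of the genes with the most reads, plus a set list of neutrophil genes. Prtn3, Ctsg, Cxcr2, Mmp9, Emcn, Igkc, Mzb1, Prdm1, Pi16, Cxcl9, Irf7, Oasl1, Krt20, Ceacam20, Arc, Mroh6, Padi4, Xist and Ddx3y were named after their values were seen. Coding and 3' end sequences came from GENCODE M21 (GRCm38), with 1 transcript per gene, and promoters from RefSeq (GRCm38.p6). Coding sequences and promoters were aligned with Biopython 1.88. The 3' ends were compared by exact match with all transcripts of that annotation. They were also compared by edit distance with 52 genes of the stretch of chromosome 15 around the cluster and with the members. Protein sequences were not used here. Alternatives were plain CPM, DESeq2 1.42.0 size factors, TMM without mitochondrial and ribosomal RNA or without skin and muscle genes, a pseudocount of 0.1, other filters, a 4-fold threshold, thinning of the deeper library, and adding Ly6c1 and Ly6c2.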

Additional observations from a re-analysis of the deposited data

How the results depend on the processing

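The 4 members called lower were the same genes (Ly6d, Ly6g, Ly6g6c and Ly6m) under every scaling, filter, pseudocount and depth tried, and 3 of them (without Ly6g) remained past a 4-fold threshold. The count of members higher was 0, and 1 (Ly6c2) with at least 10 reads in 1 or both libraries or with no filter. Over all genes, higher and lower were 111 and 317, but 482 and 908 with at least 10 reads in 1 or both libraries, 482 and 952 without any filter, and at a 4-fold threshold 16 and 144. Plain CPM gave 166 and 248 and shifted the median of all genes by 0.12 on the log2 scale. Under it Ly6a (-0.65), Ly6e (0.53) and Ly6g (-1.20) moved past their counting intervals and kept their directions. The difference of Ly6c2 (1.16) was reversed to -0.08 when its reads and those of Ly6c1 were added. With a pseudocount of 0.1, Ly6i was -1.57 and Ly6k 1.48, because genes near 0 reads move most. Of the recomputed member values, 56 kept their direction within the counting interval, 5 moved past it and 1 was reversed. Of the list medians, 73 moved by less than 0.25 on the log2 scale and 5 by more. No paired analysis was possible because WT and ERAP1+/- have 1 library each. Depth limits Ly6i and Ly6k (5 reads or fewer), and no value has a replicate.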

Other observations

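Among genes of the family outside those described, Ly6a2, the nearest relative of Ly6a and Ly6i at the 3' end, had 0 reads in WT and 2 in ERAP1+/-. Ly6g6g, a neighbour of Ly6g6c by name, had 4 and 3 reads. Ly6g6e had 11 and 35 reads (ratio 2.66, 95% interval 1.32 to 5.80) and Ly6g6d 62 and 60 (ratio 0.808, 95% interval 0.557 to 1.17), against the 707 and 23 reads of Ly6g6c. Bambi, a pseudoreceptor of TGF-beta signalling that is listed with the wider family, had 65 and 162 reads (ratio 2.08, 95% interval 1.55 to 2.82). Cd177, a neutrophil surface protein of the uPAR domain family, had 48 and 74 reads (ratio 1.29, 95% interval 0.884 to 1.89), beside the 2867 and 1367 reads of Ly6g. These genes were chosen after their values were seen.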
